A study of Mus musculus with 12 samples.

Results

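Genes that drive mitochondrial apoptosis were followed through radiation-induced senescence in cells with and without the clock factor BMAL1. They were Bax and Bak1, the pore-forming executioners of the BCL-2 family, and 8 BH3-only genes, Bcl2l11 (BIM), Bid, Bbc3 (PUMA), Pmaip1 (NOXA), Bmf, Bad, Bik and Hrk, chosen by name from the 49315 genes of the count tables. All 10 were present in the tables and 8 had enough counts to be tested, while Bik and Hrk did not. RNA-seq had been done on primary mouse adult fibroblasts (MAFs) grown from the ears of adult female mice, either wild-type (WT) C57BL/6 or Bmal1 -/- (KO). The 12 libraries formed 4 groups of 3. WT control and KO control cells were sham irradiated. WT senescent and KO senescent cells received 20 Gy of X-rays and were then cultured for weeks before collection. All 4 groups shared exposure to 100 nM dexamethasone, a glucocorticoid that synchronizes the circadian clocks of cultured cells, for 2 h and were collected 12 h afterwards. The number of mice behind the cultures and any pooling of mice were not given in the sources used here, so p-values measure the spread between libraries, which may be technical.

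BAX and BAK reside on or move to the outer mitochondrial membrane and, once activated, form pores that release cytochrome c. Pro-survival relatives such as BCL-2, BCL-XL, BCL-W and MCL-1 hold them in check, and BH3-only proteins tip the balance by binding the pro-survival proteins or by activating BAX and BAK directly. BIM, PUMA and the cleaved form of BID bind a broad set of pro-survival partners, whereas NOXA favours MCL-1 and BAD favours BCL-2, BCL-XL and BCL-W. Bax, Bbc3 and Pmaip1 are textbook targets of p53, and Bcl2l11 and Bbc3 are also transcribed by FOXO factors. Senescent cells are known for withstanding apoptosis, and the drug class that removes them includes inhibitors of the pro-survival proteins.

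CLOCK and BMAL1 bind the E-box CACGTG, so the promoters that held this motif are shown with the FOXO-motif promoter of Bcl2l11, a member whose senescence response differed between genotypes. The sequences run from 250 bases before to 50 bases after an annotated transcription start, on the strand of the gene, from RefSeq on GRCm38.p6. They lie at chr7:45466849-45467148 (Bax, minus strand), chr7:16310181-16310480 (the third Bbc3 start, plus strand) and chr2:128125788-128126087 (the first Bcl2l11 start, plus strand). Capitals mark CACGTG, the FOXO motif GTAAACA or a p53 half-site, and positions count the start base as 0.
Bax: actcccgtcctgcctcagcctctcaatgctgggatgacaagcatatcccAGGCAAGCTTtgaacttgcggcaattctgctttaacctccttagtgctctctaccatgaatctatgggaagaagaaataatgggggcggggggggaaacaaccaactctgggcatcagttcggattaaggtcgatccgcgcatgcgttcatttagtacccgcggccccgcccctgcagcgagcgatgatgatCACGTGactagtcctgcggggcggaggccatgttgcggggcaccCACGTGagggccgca
Bbc3: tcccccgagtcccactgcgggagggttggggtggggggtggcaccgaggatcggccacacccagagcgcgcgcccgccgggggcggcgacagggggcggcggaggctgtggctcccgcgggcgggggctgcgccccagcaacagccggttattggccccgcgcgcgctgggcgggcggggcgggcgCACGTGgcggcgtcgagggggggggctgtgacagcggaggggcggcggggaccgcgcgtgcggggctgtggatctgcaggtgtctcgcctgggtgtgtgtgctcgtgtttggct
Bcl2l11: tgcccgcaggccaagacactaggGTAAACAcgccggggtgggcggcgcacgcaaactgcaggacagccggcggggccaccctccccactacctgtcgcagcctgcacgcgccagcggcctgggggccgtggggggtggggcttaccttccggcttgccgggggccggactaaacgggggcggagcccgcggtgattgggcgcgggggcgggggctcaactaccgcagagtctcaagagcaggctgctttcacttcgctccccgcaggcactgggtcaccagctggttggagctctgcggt

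Bax carried CACGTG at positions -9 to -4 and again at 35 to 40, and a p53 half-site at -201 to -192. The third Bbc3 start carried CACGTG at -64 to -59, and the first Bcl2l11 start carried GTAAACA at -227 to -221. The starts kept were 14, for 8 of the 10 genes, with none for Pmaip1 and Bik. Entries on chromosome 18, where Pmaip1 lies, were left out of this count. Of those 14, 2 had CACGTG and 2 had GTAAACA on either strand (the first Bcl2l11 start and the second Bbc3 start, not shown). A p53 half-site was in 2 (Bax and the first Bmf start), and 0 had the AP-1 motif TGACTCA or the CRE motif TGACGTCA. Among all 32851 promoters searched on both strands, CACGTG was found in 7.15%, GTAAACA in 3.65%, the p53 half-site in 8.36%, the AP-1 motif in 5.20% and the CRE motif in 1.79%. The matches describe letters in these windows and no binding was measured here.

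Total counts per library were 23923030 to 31736083. Levels are counts per 1000000 (CPM), with each library total adjusted by its TMM factor (trimmed mean of M-values), and levels of different genes are compared only as CPM per kilobase of exon. The cells carried the label's markers, with all 10 fibroblast markers above 0 in every group and summed at 9852 to 26344 CPM. Chondrocyte markers were also high, at 4699 to 8981 CPM summed over 6 genes in control libraries and 571 to 2126 CPM in senescent libraries, with Matn1 at 0 in WT control cells. Macrophage, keratinocyte, melanocyte, endothelial, adipocyte and Schwann cell markers each summed to at most 23.1 CPM, and skeletal muscle markers to at most 58.6 CPM. Arntl, the gene of BMAL1, stood at 31.5 ± 1.71 and 13.2 ± 1.83 CPM in WT and KO control cells and at 36.1 ± 1.10 and 26.6 ± 1.13 CPM in WT and KO senescent cells (SD, n = 3), so its reads were reduced and not absent in KO (edgeR adjusted p 2e-09 and 0.000329). Because counts came as 1 table per genotype, a difference between genotypes and a difference in handling between tables cannot be told apart.

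The first question was how the set moved with senescence. In WT cells 4 members rose (Pmaip1, Bbc3, Bax and Bid) and 1 fell (Bak1), where passing means an adjusted p under 0.05 by edgeR's quasi-likelihood (QL) test. Among all genes tested in that comparison 29.2% rose and 27% fell. In KO cells the same 4 members rose and 3 fell (Bak1, Bcl2l11 and Bmf), beside 28.5% and 28.6% of all genes. With the added requirement of a log2 fold change over 1 in size, only Pmaip1 was called in WT cells and only Pmaip1 and Bmf in KO cells, against 11.6% higher and 5.9% lower of all genes in WT and 11.2% higher and 7.58% lower in KO. Control and senescent libraries did not overlap for 7 of the 8 members tested in WT (all but Bcl2l11) and for 7 in KO (all but Bad), beside 63.2% and 61.6% of all genes. The median log2 fold change of the 8 members tested was 0.30 in WT and 0.18 in KO cells, beside 0.02 and -0.00 over all genes tested. No member's passing direction turned under another scaling. In bulk RNA, fewer cells of a type and less RNA per cell cannot be told apart.

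**Figure D1:**
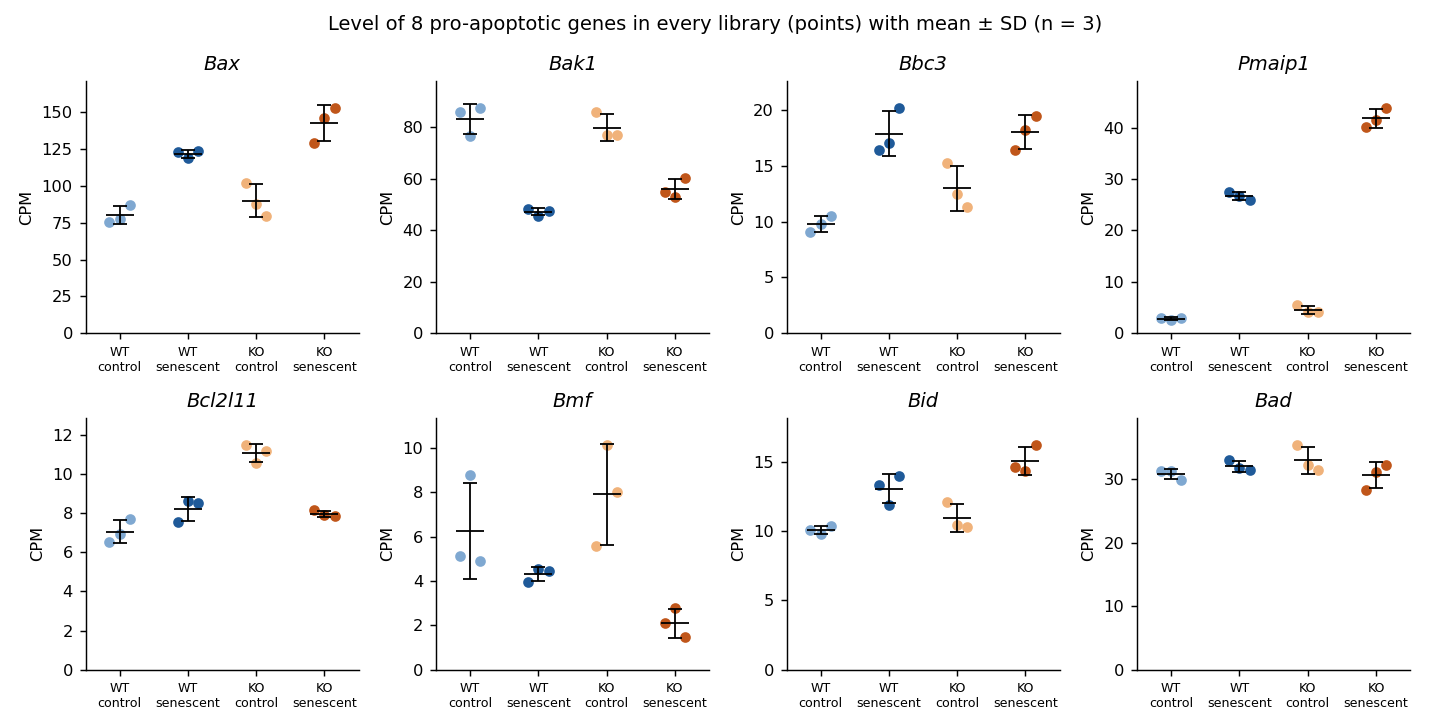
CPM (vertical axes, from 0) of the 8 tested members in each of 12 libraries, with the group mean and SD over 3 libraries as bars. Pmaip1 separated senescent from control cells in both genotypes, Bak1 was lower in every senescent library, and Bcl2l11 was highest in the KO control libraries.

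Bax (ENSMUSG00000003873, GRCm38 chromosome 7, 45461697 to 45466898, minus strand) was the most abundant member per length in every group. It stood at 75.2, 77.9 and 86.9 CPM in WT controls (libraries given as replicates 1 to 3 here and below) and at 123, 119 and 124 CPM after WT senescence. KO controls held 102, 87.7 and 79.9 CPM, and KO senescent cells 129, 146 and 153 CPM. Every senescent library lay above every control library of either genotype. The log2 fold change with senescence was 0.61 in WT (SE 0.08, edgeR QL adjusted p 5.95e-06) and 0.67 in KO cells (SE 0.08, adjusted p 1.79e-06). The 2 responses differed by 0.06 with a 95% interval of -0.18 to 0.30, which did not pass (edgeR QL adjusted p 0.764). The Bax exons share 192 bases with Gm45808 on the same strand, a gene at most 0.034 CPM here.

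Bak1 (ENSMUSG00000057789, chromosome 17, 27019810 to 27029009, minus strand), whose product does the same work as BAX but sits constitutively on the mitochondrion, moved the other way. It stood at 85.7, 76.4 and 87.4 CPM in WT control and 48.3, 45.6 and 47.4 CPM in WT senescent cells. In KO cells the levels were 85.8, 76.7 and 76.9 CPM in control and 54.9, 52.7 and 60.2 CPM in senescent cells. All control libraries were above all senescent libraries, and every KO senescent library was above every WT senescent library. On the log2 scale Bak1 fell by 0.82 in WT cells (SE 0.07, edgeR QL adjusted p 9.8e-10), and in KO cells it fell by 0.51 (SE 0.07, adjusted p 9.09e-07). The difference between responses was 0.31 (SE 0.09, edgeR QL adjusted p 0.0221), but it missed the threshold at adjusted p values up to 0.0707 with any one of 6 libraries left out. These were replicates 1 and 3 of WT control, 2 and 3 of KO control, 2 of WT senescent and 3 of KO senescent cells. Between senescent genotypes Bak1 was higher in KO by 0.25 (SE 0.07, edgeR QL adjusted p 0.00888), which was lost without WT senescent replicate 2 (0.0527) or KO senescent replicate 3 (0.0619). Exons of Bak1 share 437 bases with Ggnbp1 on the opposite strand, at 1.88 to 4.59 CPM.

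As Bax rose and Bak1 fell, their proportion shifted. The ratio of Bax to Bak1, in CPM per kilobase of exon, was 1.34, 1.56 and 1.52 in WT control libraries and 3.89, 3.98 and 3.99 in WT senescent libraries. It was 1.82, 1.75 and 1.59 in KO control and 3.59, 4.24 and 3.88 in KO senescent libraries. No control library overlapped a senescent one, and the senescent groups of both genotypes overlapped, at means of 3.95 ± 0.06 and 3.90 ± 0.32 (SD, n = 3).

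**Figure D2:**
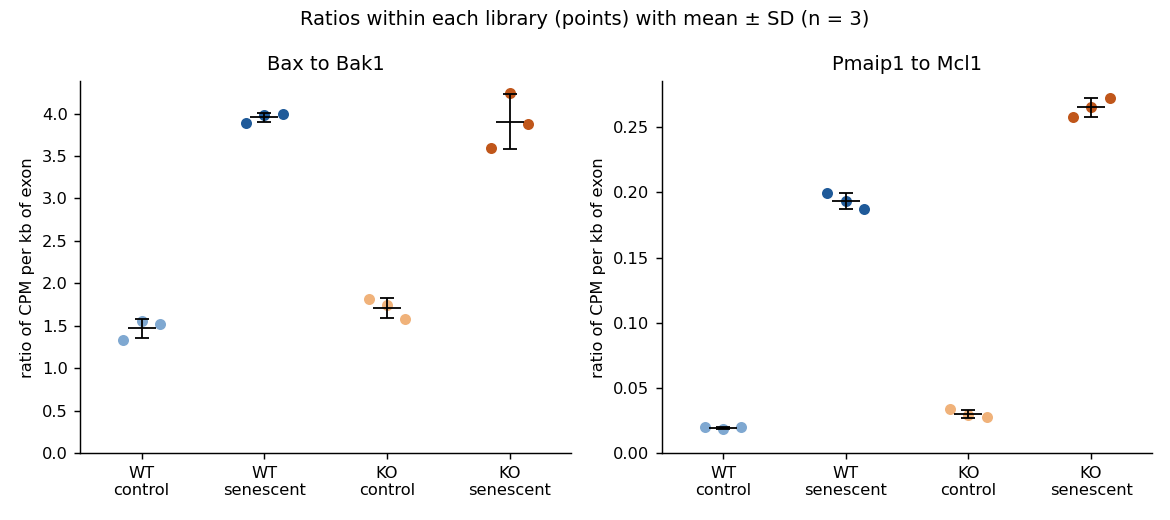
Ratio of CPM per kilobase of exon within each library, from 0, with mean and SD over 3 libraries, for Bax to Bak1 (left) and Pmaip1 to Mcl1 (right). Both ratios were higher in all senescent libraries than in any control library. Pmaip1 to Mcl1 was also higher in KO than in WT libraries of the same state, control or senescent.

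Pmaip1 (ENSMUSG00000024521, chromosome 18, 66458533 to 66465565, plus strand), the NOXA gene, had the largest change among the members tested in both genotypes. It stood at 2.90, 2.57 and 2.98 CPM in WT control and 27.5, 26.8 and 25.9 CPM in WT senescent cells. In KO cells the levels were 5.48, 4.07 and 4.08 CPM in control and 40.1, 41.5 and 43.9 CPM in senescent cells. Senescent libraries lay far above controls in each genotype, and KO libraries lay above WT libraries of the same state. The log2 fold change with senescence was 3.25 in WT (SE 0.11, edgeR QL adjusted p 1.47e-15), a 9.50-fold rise that ranked 258 from the top of 17416 genes, and 3.20 in KO (SE 0.10, adjusted p 3.96e-16), a 9.22-fold rise that ranked 290. The responses differed by -0.04 (95% interval -0.36 to 0.28). KO was above WT by a log2 fold change of 0.69 in control (SE 0.13, edgeR QL adjusted p 0.00106) and 0.65 in senescent cells (SE 0.08, adjusted p 9.27e-06). Mcl1, the preferred partner of NOXA, stood at 181 ± 6.03 CPM in WT control and 173 ± 0.312 in WT senescent cells, and at 186 ± 14.3 CPM in KO control and 197 ± 3.70 in KO senescent cells (SD, n = 3). The ratio of Pmaip1 to Mcl1 per kilobase went from 0.0194 ± 0.00089 to 0.193 ± 0.0061 in WT and from 0.0304 ± 0.0030 to 0.265 ± 0.0072 in KO cells (SD, n = 3).

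**Figure D3:**
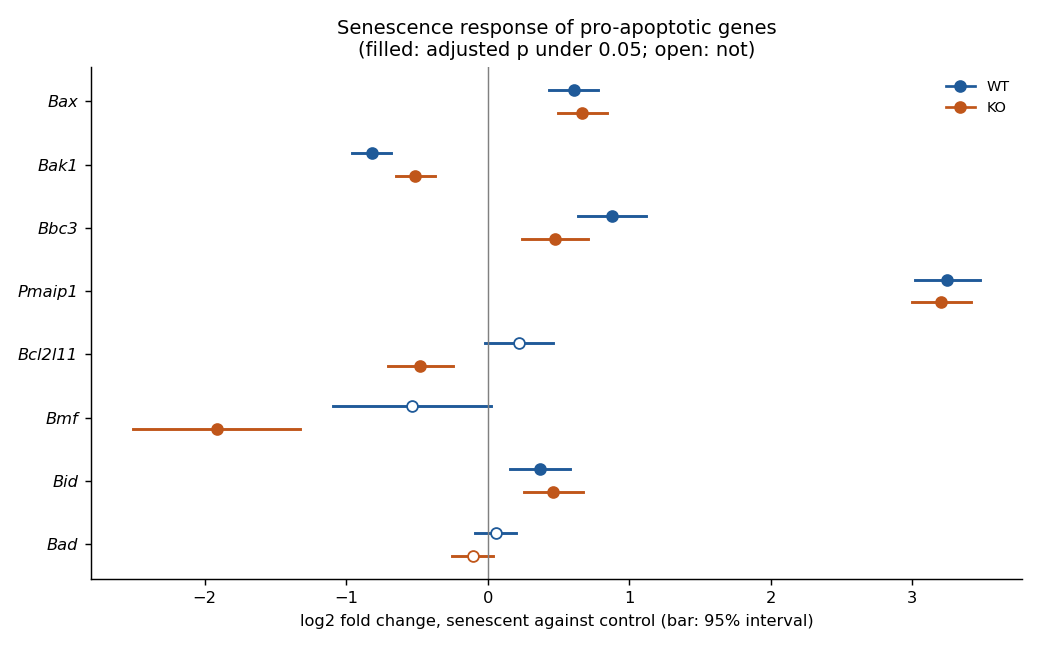
Log2 fold change of each tested member, senescent against control (horizontal axis), in WT and KO cells, with 95% intervals. Filled points passed an adjusted p of 0.05. Pmaip1, Bbc3, Bax and Bid were to the right of 0 and filled in both genotypes, and Bak1 was to the left.

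Bbc3 (ENSMUSG00000002083, chromosome 7, 16308393 to 16318205, plus strand), the PUMA gene, stood at 9.05, 9.77 and 10.5 CPM in WT control and 16.4, 17.1 and 20.2 CPM in WT senescent cells. It stood at 15.2, 12.5 and 11.3 CPM in KO control and 16.4, 18.3 and 19.5 CPM in KO senescent cells. Senescent libraries were above control libraries of their genotype, and the 2 senescent groups overlapped. The log2 fold change was 0.88 in WT (SE 0.12, edgeR QL adjusted p 1.37e-06) and 0.47 in KO cells (SE 0.11, adjusted p 0.00107). The difference of -0.40 between them did not pass (SE 0.16, edgeR QL adjusted p 0.0829). KO control cells exceeded WT control cells by 0.42 (adjusted p 0.0225), a call lost without WT control replicate 1 (adjusted p 0.113), KO control replicate 1 (0.110) or both control replicate 2 libraries (0.0761).

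Bid (ENSMUSG00000004446, chromosome 6, 120891930 to 120916853, minus strand), whose product is cleaved by caspase-8 to carry a death-receptor signal to mitochondria, rose a little in both genotypes. It stood at 10.1, 9.81 and 10.4 CPM in WT control and 13.3, 11.9 and 13.9 CPM in WT senescent cells. KO controls held 12.1, 10.4 and 10.3 CPM, and KO senescent cells 14.6, 14.3 and 16.2 CPM. Control and senescent libraries did not overlap within either genotype. The log2 fold changes were 0.37 in WT (edgeR QL adjusted p 0.00402) and 0.46 in KO cells (adjusted p 0.000466). Its exons share 628 bases with Bcl2l13 on the opposite strand, at 36.6 to 57.3 CPM, so some reads may belong to that gene.

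Bcl2l11 (ENSMUSG00000027381, chromosome 2, 128126038 to 128162547, plus strand), the BIM gene, differed between the genotypes in its senescence response. It stood at 6.52, 6.92 and 7.68 CPM in WT control and 7.52, 8.59 and 8.49 CPM in WT senescent cells, where the libraries overlapped. In KO cells it stood at 11.5, 10.5 and 11.2 CPM in control and 8.14, 7.87 and 7.83 CPM in senescent cells. The KO control libraries were above all other libraries. In WT cells the log2 fold change was 0.22 (SE 0.11, edgeR QL adjusted p 0.107), and in KO cells Bcl2l11 fell by 0.48 (SE 0.11, adjusted p 0.000954). The WT value passed with upper-quartile factors (0.31, adjusted p 0.0227) and with library totals (0.39, adjusted p 0.00497). The difference between responses was -0.70 (SE 0.16, edgeR QL adjusted p 0.00377) and passed with each library left out in turn. KO control cells exceeded WT control cells by 0.65 (edgeR QL adjusted p 0.000413). In senescent cells the KO against WT value was -0.04, with a 95% interval of -0.28 to 0.19.

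Bmf (ENSMUSG00000040093, chromosome 2, 118528757 to 118549687, minus strand), a BH3-only gene linked to loss of attachment and to the cytoskeleton, was the other member whose response was lower in KO. It stood at 5.11, 8.75 and 4.88 CPM in WT control and 3.95, 4.55 and 4.44 CPM in WT senescent cells. In KO cells it stood at 5.56, 10.1 and 7.99 CPM in control and 2.08, 2.77 and 1.45 CPM in senescent cells. Replicate 2 was the highest control library in both genotypes, and the 3 KO senescent libraries were below all other libraries. The log2 fold change was -0.54 in WT (SE 0.26, edgeR QL adjusted p 0.0937), and in KO cells Bmf fell by 1.92 (SE 0.28, adjusted p 2.18e-05). The responses differed by -1.38 (SE 0.38, edgeR QL adjusted p 0.018), and the KO against WT log2 fold change of senescent cells was -1.04 (SE 0.28, adjusted p 0.0145). The second of these calls was lost without WT senescent replicate 2 (adjusted p 0.0537), KO senescent replicate 1 (0.0514) or KO senescent replicate 3 (0.0706).

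Chondrocyte markers as a sum were lower in senescent cells, as was Bmf in KO. Their sum was 7543, 8981 and 7225 CPM in WT control and 1838, 1934 and 2126 CPM in WT senescent cells, and 4699, 6497 and 5949 CPM in KO control and 640, 657 and 571 CPM in KO senescent cells. All 5 chondrocyte markers tested fell in both genotypes, and all 5 were lower after senescence in KO than in WT. Between control genotypes the order was opposite, with every marker sum lower in KO than in WT and mean Bmf at 7.89 CPM in KO and 6.25 CPM in WT. Within each control group the replicate 2 library was highest for both the marker sum and Bmf. Without both replicate 2 control libraries, a choice made after the data were seen, the Bmf log2 fold change was -0.22 in WT (edgeR QL adjusted p 0.449) and -1.69 in KO (adjusted p 3.44e-06), and the difference between responses was -1.48 (adjusted p 0.00413). The part of the chondrocyte markers in the Bmf result was not tested.

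Bad (ENSMUSG00000024959, chromosome 19, 6941861 to 6951899, plus strand), whose product is held inactive by survival-kinase phosphorylation, gave no passing difference in any comparison on the TMM scale. With library totals in place of TMM it passed in WT senescence, at a log2 fold change of 0.22 (edgeR QL adjusted p 0.01). Its means were 30.8 ± 0.854 CPM in WT control, 32.04 ± 0.843 in WT senescent, 33.0 ± 2.15 in KO control and 30.6 ± 2.03 in KO senescent cells (SD, n = 3). The log2 fold change with senescence lay within a 95% interval of -0.09 to 0.20 in WT and -0.25 to 0.04 in KO cells. Its exons share 524 bases with Gpr137 on the opposite strand, at 18.5 to 29.0 CPM.

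Bik (ENSMUSG00000016758, chromosome 15) and Hrk (ENSMUSG00000046607, chromosome 5), BH3-only genes of restricted expression, were barely counted. Bik had 0, 1 and 1 reads in WT control, 1, 2 and 3 in WT senescent, 2, 0 and 0 in KO control and 0, 4 and 4 in KO senescent libraries. Hrk had 1, 2 and 1, then 0, 0 and 1, then 1, 0 and 4, then 3, 0 and 1 reads in the same order. The 3-count floor equals 0.101 to 0.135 CPM per library, so nothing about their direction was detectable at this depth.

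Per kilobase of exon the order of members was Bax, Bak1 and Bad in all groups except KO senescent cells, where Pmaip1 stood above Bad. In WT control cells the means were 50.8 for Bax, 34.6 for Bak1, 12.1 for Bad, 4.60 for Bbc3 and 2.84 CPM per kilobase for Bid, and neighbours in this order did not overlap between libraries. Bmf, Pmaip1 and Bcl2l11 followed at 1.19, 1.03 and 0.876 and overlapped. In WT senescent cells Pmaip1, at 9.78, overlapped Bbc3, at 8.44. In KO senescent cells the order was Bax 90.6, Bak1 23.2, Pmaip1 15.3, Bad 12.0, Bbc3 8.50, Bid 4.24, Bcl2l11 0.990 and Bmf 0.400 CPM per kilobase, with no overlap between neighbours. Summed over the 10 members, the level was 224 to 241 CPM in WT control, 265 to 276 in WT senescent, 233 to 273 in KO control and 294 to 335 CPM in KO senescent libraries.

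The comparison of genotypes asked whether loss of BMAL1 changed the set. In control cells 3 members were higher in KO (Bbc3, Pmaip1 and Bcl2l11) and 0 were lower, where 8.07% of all genes passed higher and 4.96% lower. Libraries of the 2 genotypes did not overlap for 4 of the 8 tested (these 3 and Bad), beside 25.9% of all genes. In senescent cells 3 were higher (Bax, Bak1 and Pmaip1) and 1 was lower (Bmf), beside 11.9% and 11.8% of all genes. Libraries did not overlap for 5 of the 8 (Bax, Bak1, Pmaip1, Bmf and Bid), beside 42% of all genes. Between the senescence responses, 1 member was higher in KO (Bak1) and 2 were lower (Bcl2l11 and Bmf), beside 9.24% and 11.7%. With a log2 fold change over 1 as well, Bmf was the one member called, lower between the responses (1.15% higher and 2.51% lower of all genes) and lower in senescent cells (1.29% and 2.19%), and 0 were called in control cells (1.36% and 1.18%). These comparisons share libraries with those of senescence. Bax in senescent cells was higher in KO by 0.23 with an edgeR QL adjusted p of 0.0479, a call lost without any one of 8 of the 12 libraries (adjusted p up to 0.199) with the replicate block (0.0780) and with library totals (0.0796).

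**Figure D4:**
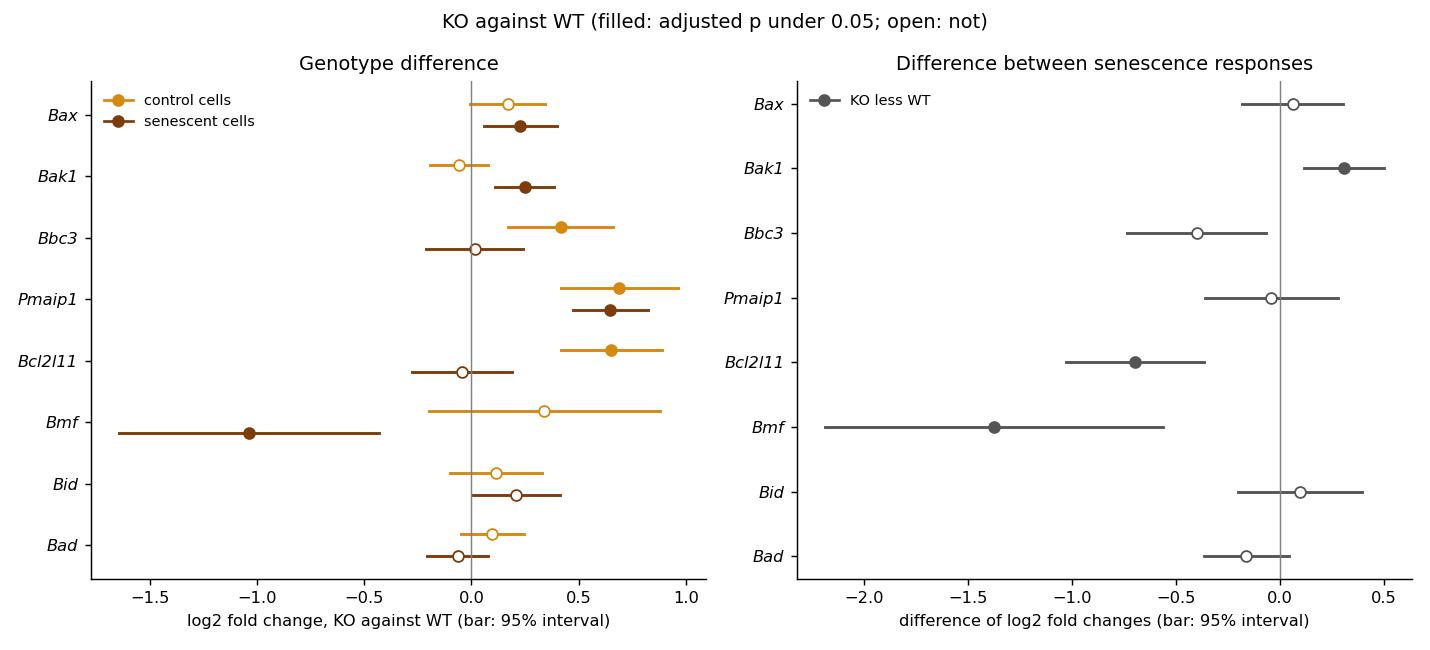
Left, log2 fold change of KO against WT in control and senescent cells. Right, the KO senescence response less the WT one, with 95% intervals. Filled points passed an adjusted p of 0.05. Pmaip1 was to the right in both states, and Bcl2l11 was to the right in control cells only, at 0.65 against -0.04 in senescent cells.

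Partners of the members were read from lists of the pathway, beside 29.2% higher and 27% lower of all genes in WT senescence. The shares in KO senescence were 28.5% and 28.6%. Of 8 pro-survival genes listed, 6 were tested, of which 3 rose in WT, and 3 rose and 2 fell in KO cells (median log2 fold change 0.62 and 0.35). Bcl2, Bcl2l1 and Bcl2l2, which encode BCL-2, BCL-XL and BCL-W, rose in both genotypes, with log2 fold changes of 1.31, 0.80 and 0.33 in WT and 1.27, 0.91 and 0.62 in KO cells. The Bcl2l2 response was larger in KO by 0.29 (SE 0.08, edgeR QL adjusted p 0.0159). Mcl1 gave -0.06 in WT and 0.09 in KO, and neither passed. Bcl2a1b, at mean levels of 0.121 to 0.575 CPM, gave 0.77 in WT, which did not pass, and fell by 2.21 in KO cells (adjusted p 0.00263), and it belongs to a cluster of near-identical genes whose reads may be split. Between senescent genotypes, 2 of the 6 were higher in KO and 1 was lower, beside 11.9% and 11.8% of all genes. The KO against WT log2 fold changes were 0.35 for Bcl2l2 (edgeR QL adjusted p 9.84e-05), 0.19 for Mcl1 (adjusted p 0.0131) and -1.73 for Bcl2a1b (adjusted p 0.0392).

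Most genes of the apoptosome and caspase list were lower in senescent cells. Among all genes tested, 29.2% rose and 27% fell in WT, and 28.5% rose and 28.6% fell in KO. Of 15 apoptosome and caspase genes tested, 14 fell and 0 rose in WT cells, and 13 fell and 1 (Vdac2) rose in KO cells (median log2 fold change -0.40 and -0.44). With library totals in place of TMM the counts that fell were 9 in each genotype, and the WT value of Vdac2 turned to 0.0064. Casp2, a caspase gene, had log2 fold changes of -1.07 in WT and -1.26 in KO cells, both passing. Aifm1, which encodes a mitochondrial flavoprotein released with cytochrome c, fell by 0.76 and 0.74. Cycs, the cytochrome c gene, fell by 0.68 in WT, and its response differed by 0.52 in KO (SE 0.08, edgeR QL adjusted p 0.000135). Of 6 other BCL-2 relatives tested, 1 rose and 4 fell in WT and 1 rose and 5 fell in KO (3 with upper-quartile factors or library totals), with Bok, a BAX-like relative, falling by 1.72 and 1.42 and Bnip3, a mitophagy receptor, by 0.99 and 1.41.

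The genes upstream were read in the same way, again beside 29.2% of all genes rising and 27% falling in WT, and 28.5% and 28.6% in KO. Of 20 p53 targets other than the members, 18 rose in each genotype, with 1 falling in WT and 2 in KO (median log2 fold change 1.13 and 1.00). The rises included Cdkn1a, the p21 cell-cycle inhibitor, by 1.92 and 1.63, Trp53inp1 by 2.34 and 1.40, Mdm2 by 1.63 and 1.52 and Ccng1 by 1.52 and 1.57. In the difference between responses 0 were higher in KO and 9 were lower, beside 9.24% and 11.7% of all genes. Trp53inp1, at -0.94, had the lowest adjusted p of them, and Gdf15, a secreted stress cytokine named after its value was seen, had the largest difference, at -1.46 (SE 0.34, edgeR QL adjusted p 0.00455). Only 10, 7 and 12 Gdf15 reads were counted in WT control replicates 1 to 3. Mean Gdf15 went from 0.410 up to 6.00 CPM during WT senescence, while KO cells started at 1.42 and reached 7.53 CPM. The negative Gdf15 difference thus came with higher means in KO in both states. In control cells 9 of the p53 targets were higher in KO and 1 lower, beside 8.07% and 4.96% of all genes. In senescent cells 2 were higher in KO and 4 lower, beside 11.9% and 11.8%, with a median log2 fold change of 0.02. Trp53 itself fell by 0.33 in WT (edgeR QL adjusted p 0.00018) and gave -0.10 in KO cells, which did not pass. Of 11 regulators of BH3-only genes tested, 5 rose and 5 fell in WT and 6 rose and 3 fell in KO (median log2 fold change 0.20 and 0.38). Trp63, which encodes p63 of the p53 family, differed most by adjusted p between the responses. It stood at 7.68, 9.53 and 7.27 CPM in WT controls and 9.76, 10.8 and 9.53 CPM after WT senescence. KO controls held 9.04, 8.28 and 7.86 CPM, and KO senescent cells 3.47, 3.62 and 3.01 CPM, below all other libraries. The Trp63 log2 fold change was 0.30 in WT, which did not pass (edgeR QL adjusted p 0.0561), and in KO it fell by 1.32 (SE 0.14, adjusted p 5.8e-08). The responses of Trp63 differed by -1.62 (SE 0.19, edgeR QL adjusted p 1.19e-05), and KO against WT senescent cells gave -1.58 (SE 0.14, adjusted p 6.25e-08). Foxo3, a FOXO factor, had a response lower by 0.44 on the log2 scale in KO than in WT (adjusted p 0.000466) and was higher in KO control cells by 0.41, while Ddit3 rose by 1.58 and 1.63. Mki67, a marker of proliferation, fell by 3.70 in WT and 4.46 in KO cells.

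**Figure D5:**
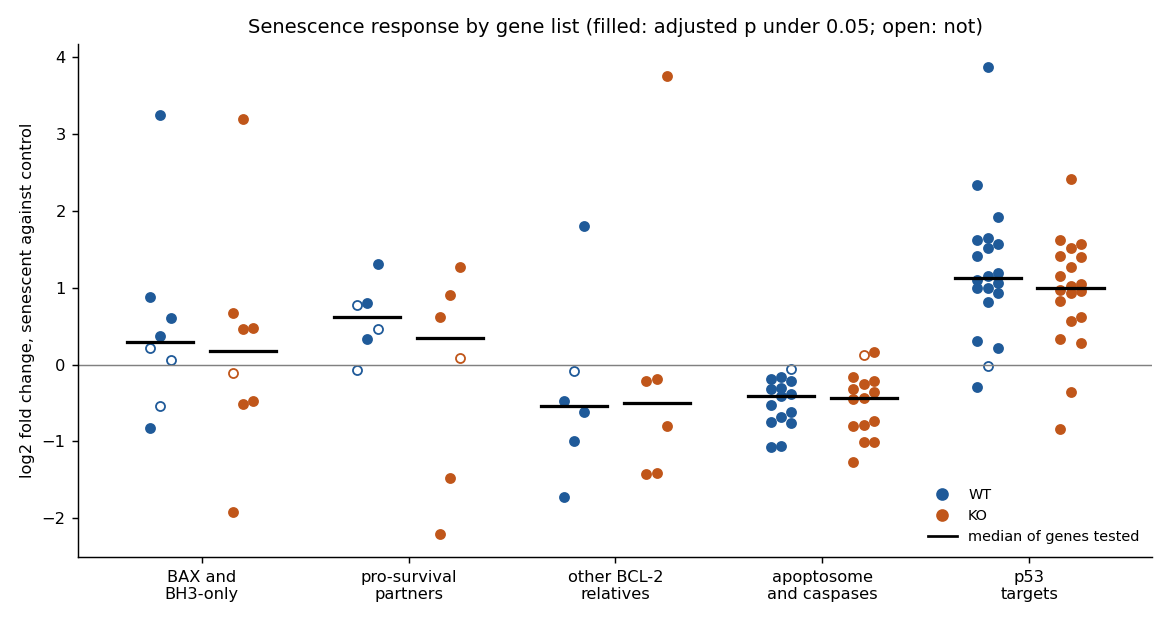
Log2 fold change, senescent against control (vertical axis), for each tested gene of 5 lists in WT and KO cells. Black lines are medians, and filled points passed an adjusted p of 0.05. The p53 targets lay mostly above 0 and the apoptosome and caspase genes mostly below, with the pro-apoptotic members on both sides.

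For each member the gene whose log2 CPM ran closest to it over the 12 libraries was taken from 10946 candidates. Bak1 ran with Casp8, the caspase that cleaves BID, at a Pearson r of 0.995. Pmaip1 ran with Stom at 0.997, Bax with Mid1ip1 at 0.990, Bid with Rala at 0.981, Bmf with Epb41l2 at 0.979, Bbc3 with Ccdc122 at 0.972, Bcl2l11 with Ptk7 at 0.941 and Bad with Snx15 at 0.827. The libraries fall into 4 groups that share state and genotype, so these values describe group patterns. Among members, Bax and Bid (0.966) and Bax and Pmaip1 (0.966) ran together, and Bak1 and Pmaip1 ran oppositely (-0.887).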

How the data were processed

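Poly(A) RNA libraries were sequenced as paired reads. The authors trimmed reads with Trimmomatic 0.36, mapped them to GRCm38 with STAR 2.5.2b and counted unique reads within exons with featureCounts, and the deposited values are raw counts per gene, in 1 table per genotype. Use of strand and the annotation release were not given in the sources used here, so overlapping genes are uncertain. Symbols, positions and exon lengths came from GENCODE on GRCm38 and matched 49056 of 49315 identifiers.

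Counts were tested in R 4.3.3 with edgeR 4.0.16, using TMM factors, filterByExpr (17416 genes kept) and a robust quasi-likelihood fit over all 12 libraries with 1 mean per group. P-values were adjusted by Benjamini-Hochberg over all genes tested. Passing means an adjusted p under 0.05, and a call also needs a log2 fold change over 1 in size, the threshold of the study. The standard error is the log2 fold change over the square root of F. CPM floors cover counting error only. Alternatives included DESeq2 1.42.0, other scalings and filters, replicate blocks, glmTreat at 0.5 and leaving out each library. The fits were tested on simulated data. Named were all 10 members, at most 4 genes per list and comparison by lowest adjusted p, 5 pro-survival partners, Cdkn1a, Mdm2, Trp53, Mki67 and Arntl, and the gene most like each member. Members and lists were chosen with earlier results of these data known. Every adjusted p given for a gene is from the edgeR test. A gene that the naming rule gave is not reported here.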

Additional observations from a re-analysis of the deposited data

Results flagged for a closer look

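A total of 3 members had a senescence response that differed between KO and WT by the test of the difference itself (edgeR's quasi-likelihood test). Among all genes tested, 9.24% were higher and 11.7% lower in that test. The difference, KO less WT on the log2 scale, was 0.31 for Bak1, -0.70 for Bcl2l11 and -1.38 for Bmf. The Bak1 value missed the threshold without any one of 6 libraries, whereas those of Bcl2l11 and Bmf passed with every library left out in turn. Against a log2 fold change of 0.5 (glmTreat), none of the 3 differences passed. Groups of 3 libraries were not tested for single outlying samples.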

How the results depend on the processing

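Requiring a log2 fold change over 1 as well left 1 member higher and 0 lower in WT senescence, 1 higher and 1 lower in KO senescence, 0 higher and 1 lower in the difference between responses, and 0 higher in KO against WT control or senescent cells. Testing against a log2 fold change of 0.5 (glmTreat) left 2 higher and 1 lower (Bak1) in WT senescence, and 2 higher and 1 lower (Bmf) in KO senescence. It left 0 in each direction of the difference between responses and of the genotype comparisons. The count of members lower in WT senescence rose from 1 to 2, by Bmf, with all genes kept, with only the 2 groups fitted, and with either replicate block.

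Same-numbered control and senescent libraries deviated together at r of 0.015 to 0.108 in WT and -0.125 to 0.045 in KO. Deviations from means of 3 libraries cannot show whether the numbers pair the samples, so pairing by mouse or culture remains unknown. With the replicate block the counts were 4 higher and 2 lower in WT senescence, 4 and 3 in KO senescence, 1 and 2 in the difference, 3 and 0 in control cells and 2 and 1 in senescent cells, where Bax was lost (adjusted p 0.0780).

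Leaving out 1 library at a time gave 1 to 2 lower in WT senescence, 0 to 1 higher and 2 to 3 lower in the difference, 2 to 3 higher in control cells, and 1 to 3 higher and 0 to 1 lower in senescent cells. Near-zero values changed sign: Bax from -0.020 to 0.158 and Pmaip1 from -0.125 to 0.109 in the difference, and Bbc3 from -0.045 to 0.108 between senescent genotypes. With library totals alone, Bad in KO senescence became 0.046 and Bbc3 between senescent genotypes -0.021, a scaling that moved the median of all genes to 0.19 in WT and 0.15 in KO senescence. The upper-quartile scaling moved it to 0.11 in WT senescence. Members higher in WT senescence numbered 5 with upper-quartile factors (by Bcl2l11) and 6 with library totals (by Bcl2l11 and Bad), against 4, and those higher in KO than WT senescent cells fell from 3 to 2 with library totals (Bax lost). Of all genes, 6030 were higher and 3923 lower in WT senescence with upper-quartile factors, and 7000 and 3213 with library totals. DESeq2 gave the same member counts in all 5 comparisons. Of 456 values under settings other than leaving out a library, 427 kept their direction and call. The cause of these changes was not tested. Depth limits Bik and Hrk.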
